A study of Mus musculus with 22 samples.

Results

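The subject of this report is a set of 8 genes, Sprr1a, Tgm1, Tgm2, Emp1, Emp3, Tm4sf1, Akr1b8 and Megf11, measured in single nuclei and single cells of the mouse hypothalamus after fibroblast growth factor 1 (FGF1) was given into the cerebral ventricle (icv). The genes were chosen because most of them were near 0 in vehicle-treated mice on Day 1 and higher after FGF1. All 8 of the 8 were found, among 20668 genes measured in nuclei and 16304 genes measured in whole cells. Because the Day 1 nuclei chose the genes, the Day 1 values below are a description without a test, and tests were made only in Day 5 nuclei and in Day 5 whole cells.

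Several of these genes are best known from stratified epithelium and from injured tissue. Sprr1a encodes a small proline-rich protein of the cornified envelope, the cross-linked protein shell of keratinocytes, and is also known for its induction in injured peripheral neurons. Tgm1 encodes the membrane-bound transglutaminase of keratinocytes that cross-links such envelope proteins, and Tgm2 encodes tissue transglutaminase, a broadly expressed cross-linking enzyme. Emp1 and Emp3 belong to the epithelial membrane proteins of the PMP22 family, and Tm4sf1 encodes a membrane protein of the L6 family that is abundant in endothelium. Akr1b8 encodes an aldo-keto reductase that reduces reactive aldehydes, and Megf11 encodes a membrane protein with multiple EGF-like domains. Tanycytes, ependymal cells and astrocytes are the glia that line or adjoin the third ventricle. The injection was made into the lateral ventricle, whose fluid drains into the third. Tanycytes send long processes into the hypothalamus.

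All 22 mice were male ob/ob animals, which are leptin-deficient and diabetic, aged 11 weeks, and each library came from 1 mouse. FGF1-treated mice received a single icv dose of 3 µg, and vehicle-treated mice received PBS and were pair-fed. Single-nucleus RNA-sequencing (snRNA-seq) covered Day 1, which is 24 h after injection (3 FGF1 and 3 vehicle mice), and Day 5 (2 and 2), and single-cell RNA-sequencing (scRNA-seq) covered Day 5 in a separate cohort kept on another chow (6 and 6). The whole-cell mice were an ob/ob line of another supplier (Janvier, against Jackson for nuclei). Their tissue was also cut further, to the mediobasal hypothalamus. All groups carry the same leptin deficiency, and no lean or freely fed group was analysed here.

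The files held 8620 FGF1 and 4586 vehicle nuclei on Day 1, 7986 and 3773 nuclei on Day 5, and 25767 and 29123 whole cells on Day 5. Transcripts were counted by unique molecular identifiers (UMIs). Library totals ran from 2652897 to 16345981 UMIs per mouse, and the median UMI count per barcode ran from 2029 to 3986 across nuclear libraries and from 1117.5 to 2090 across whole-cell libraries. Cell barcodes that occurred in more than 1 library made up 1.29% of nuclear and 3.38% of whole-cell barcode sequences. Levels are given as CPM, UMI counts per 1000000 UMIs of 1 cell type in 1 mouse, scaled by the trimmed mean of M-values (TMM). The UMIs summed for this are those of the genes with enough counts for the fit of that type. CPM are therefore raised where few genes were fitted. In whole cells, 313 genes were fitted in pericytes and 10494 in tanycytes. On Day 1, 1456 were fitted in ependymal and 3534 in tanycyte nuclei. Levels of different types are thus not on 1 scale.

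The promoters of Sprr1a and Emp1 are shown because each of these genes has a start, and no other member with an entry has one, that held matches to the AP-1 motif, a sequence bound by immediate-early transcription factors of the Fos and Jun families. Promoter windows from 250 bases before to 50 bases after a gene start were taken from RefSeq (GRCm38.p6) for the 6 members with an entry, in 9 windows. Tgm2 and Megf11 had no entry. Motifs were searched on both strands, and capitals mark matches to AP-1 (TGANTCA) or to the antioxidant response element (TGACNNNGC, here on the other strand). The Sprr1a stretch lies at chr3:92485896-92486131 on the minus strand, from 250 to 15 bases before the RefSeq start, and outside annotated exons. The Emp1 stretch lies at chr6:135362708-135362912 on the plus strand, from 223 to 19 bases before the RefSeq start, with 9 bases inside an exon of another annotated transcript.
Sprr1a: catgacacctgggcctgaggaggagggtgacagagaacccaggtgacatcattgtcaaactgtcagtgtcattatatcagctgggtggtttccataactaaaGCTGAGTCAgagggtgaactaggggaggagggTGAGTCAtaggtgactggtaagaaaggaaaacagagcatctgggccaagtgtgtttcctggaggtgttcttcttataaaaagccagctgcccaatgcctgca
Emp1: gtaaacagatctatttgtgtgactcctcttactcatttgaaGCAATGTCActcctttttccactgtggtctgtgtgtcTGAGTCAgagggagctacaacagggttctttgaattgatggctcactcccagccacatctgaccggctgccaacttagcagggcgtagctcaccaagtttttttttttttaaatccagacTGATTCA

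In Sprr1a, AP-1 matches began at positions -146 and -116 from the start, and the antioxidant response element match at -148 overlapped the first of them. In Emp1, AP-1 matches began at -145 and -25, and the antioxidant response element match at -182. Among all 32851 RefSeq windows of the same length, 7.81% held an AP-1 match, 0.460% held at least 2, and 12.4% held an antioxidant response element match. The ETS motif CCGGAAG matched only Akr1b8 among the 6 members (8.86% of all windows), and the TEAD motif GGAATG matched none of the 6 (14.7% of all windows). These are letter matches, not measured binding sites.

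Emp1 has a second RefSeq start, whose window held no AP-1 or antioxidant response element match. In the GENCODE annotation of GRCm38, Sprr1a lies on chromosome 3 from 92483952 to 92485895 on the minus strand, and Emp1 on chromosome 6 from 135362545 to 135383173 on the plus strand. Emp3 spans 45918023 to 45921404 of chromosome 7, Tm4sf1 spans 57285611 to 57301988 of chromosome 3, and Akr1b8 spans 34354119 to 34368463 of chromosome 6. Megf11 is the longest, from 64385626 to 64709205 of chromosome 9. Tgm1 (chromosome 14, 55700009 to 55713926) overlaps the antisense gene Gm49067, and Tgm2 (chromosome 2, 158116402 to 158146436) overlaps Rprd1b and Gm20412 on the other strand. The other members overlapped no annotated gene. Nuclear UMIs were counted over introns as well as exons.

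On Day 1, Sprr1a and Tgm1 were at 0 UMIs in all 4586 vehicle nuclei, which allows a share of up to 0.0654% of nuclei with a UMI. This limit and the others given for a count of 0 pool the nuclei of a group's mice and cover counting error only, not the spread between mice. After FGF1, Sprr1a had 1351 UMIs in 523 of 8620 nuclei and Tgm1 had 361 UMIs in 249 nuclei. Emp1 had 230 UMIs against 22 in vehicle nuclei, Akr1b8 had 256 against 24, and Emp3 had 325 against 54. Tm4sf1, Tgm2 and Megf11 had the most UMIs in vehicle nuclei and were not near 0 there. Tm4sf1 had 1603 UMIs after FGF1 against 180. Tgm2 had 79 UMIs after FGF1 and 114 in vehicle nuclei, and Megf11 had 1551 and 945.

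Of 144 pairs of a member and a cell type (18 types), 24 had enough UMIs for a fit and 17 of those had a fitted log2 difference above 1, against 3.73% of the pairs of any gene and type fitted (13.6% in tanycytes, 12% among ependymal nuclei and 7.04% in astrocytes). In 17 pairs the FGF1 and vehicle mice did not overlap. Non-overlap held for 27.8% of all genes fitted for tanycytes, 36.5% for ependymal nuclei and 15.2% for astrocytes. The members were chosen on this contrast, so these counts describe the choice.

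Sprr1a was concentrated in tanycytes on Day 1. Tanycyte nuclei held 805 of the 1351 UMIs (59.6%), at 2875, 260 and 218 CPM in FGF1 mice 1, 2 and 3 and 0 in all 3 vehicle mice. The mean of 1117 ± 1522 CPM (SD, n = 3) was at least 102-fold above vehicle, taking as the vehicle level the CPM that 3 UMIs over the 3 vehicle mice together would give. Without FGF1 mouse 1 the mean was 239 CPM and the bound 21.7-fold. FGF1 mouse 1 stood far above the other 2 FGF1 mice, and all 3 stood above every vehicle mouse.

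The share of tanycyte nuclei with a Sprr1a UMI followed the same order of mice. It was 61.3% of 119 nuclei in FGF1 mouse 1 (exact 95% interval 52.0 to 70.1%), 30.2% of 43 nuclei in mouse 2 (17.2 to 46.1%) and 28.0% of 25 nuclei in mouse 3 (12.1 to 49.4%). These intervals cover counting error only. With each nucleus thinned to 1000 UMIs the shares were 47.1%, 11.6% and 16.0%. Single tanycyte nuclei reached 52, 11 and 4 UMIs in the 3 mice.

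Other cell types held Sprr1a at lower levels, again with FGF1 mouse 1 highest. Astrocytes stood at 119, 7.99 and 6.68 CPM, and 17.3%, 2.65% and 1.92% of their nuclei had a Sprr1a UMI. Neurons that the deposited annotation did not map to a subtype stood at 34.4, 2.62 and 5.07 CPM. In FGF1 mouse 1, Agrp neurons (n13.Agrp/Gm8773) had 9 UMIs and n29.Nr5a1/Adcyap1 neurons had 35, while mice 2 and 3 together had 0 and 1 in these types.

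Sprr1a UMIs were also found in 5 of 73 microglial nuclei (6.85%), 13 of 164 oligodendrocytes (7.93%) and 4 of 68 oligodendrocyte precursor nuclei (OPC_COP, 5.88%) of FGF1 mouse 1, at median depths of 2474, 2420.5 and 2711 UMIs. Tanycyte nuclei of that mouse had a median depth of 2846 UMIs. Free RNA in droplets gives UMIs to nuclei that do not make a transcript, and its part in the shares outside tanycytes was not tested.

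**Figure D1:**
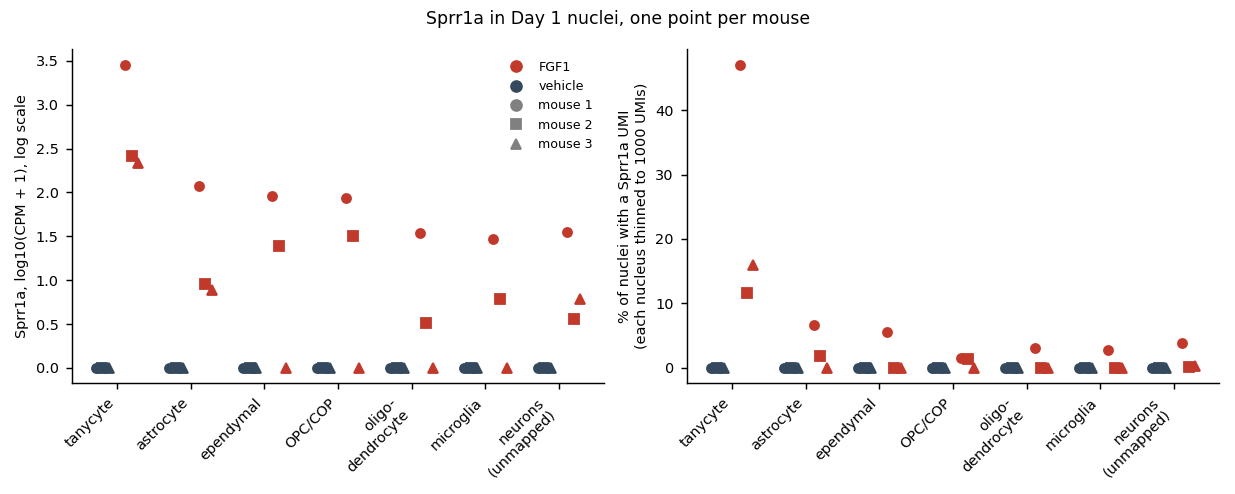
Sprr1a in Day 1 nuclei by cell type, with 1 point per mouse (circle, square and triangle for mice 1, 2 and 3; red for FGF1, dark for vehicle). The left axis is log10(CPM + 1) and the right axis is the percentage of nuclei with a Sprr1a UMI after each nucleus was thinned to 1000 UMIs; all vehicle points are at 0, and tanycytes of FGF1 mouse 1 are highest at 2875 CPM and 47.1%.

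Tgm1 was highest in ependymal nuclei rather than tanycytes. Ependymal nuclei stood at 655, 427 and 684 CPM in the 3 FGF1 mice and 0 in every vehicle mouse (589 ± 141, SD, n = 3; at least 19.8-fold on the same 3-UMI floor). Astrocytes stood at 153, 125 and 100 CPM against 0 in every vehicle mouse (126 ± 26.6; at least 36.5-fold). Tanycytes had 27 UMIs, at 71.8, 58.7 and 16.7 CPM, against 0 (at least 4.47-fold). The FGF1 mice lay closer together for Tgm1 than for Sprr1a, and no vehicle nucleus of any type carried a Tgm1 UMI.

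Tgm2, the other transglutaminase, did not follow Tgm1 in every type. In astrocytes, with too few UMIs for a fit, Tgm2 was higher after FGF1 in 3 of 3 batches. In ependymal nuclei and in tanycytes it was higher in 1 batch and lower in 2. In unmapped neurons, the only type with enough Tgm2 UMIs for a fit, it stood at 1.87, 1.05 and 3.804 CPM after FGF1 and 4.16, 8.51 and 2.27 CPM in vehicle mice. The groups overlapped, the fitted log2 difference was -1.41, and FGF1 was lower in 3 of 3 batches. In endothelial nuclei, of which each mouse had at most 19, Tgm2 had 22 UMIs after FGF1 and 14 in vehicle mice.

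The membrane protein genes differed in where they were found. Emp1 in ependymal nuclei stood at 506, 332 and 342 CPM after FGF1 and 59.3, 124 and 0 CPM in vehicle mice, a fitted log2 difference of 2.64 (3.56 without vehicle mouse 2). In astrocytes Emp1 had 78 UMIs over the FGF1 mice, at 54.4, 69.2 and 13.4 CPM, against 0 (at least 13.2-fold). Tanycyte Emp1 stood at 113, 126 and 50.2 CPM against 27.1, 0 and 0. All FGF1 mice were above all vehicle mice in these 3 types.

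Emp3 in tanycytes stood at 234, 176 and 117 CPM against 0 in every vehicle mouse (at least 16.0-fold). Astrocytes stood at 64.2, 37.3 and 40.1 CPM against 10.2, 1.94 and 0, a log2 difference of 3.67 (4.82 without vehicle mouse 1). In vascular and leptomeningeal cells (VLMC) Emp3 averaged 996 ± 368 CPM in 2 FGF1 mice and 219 ± 234 CPM in 3 vehicle mice, a log2 difference of 2.19 (3.59 without vehicle mouse 2). FGF1 mouse 2 had only 6 VLMC nuclei, under the minimum of 10, and was not in that fit. The VLMC markers in these nuclei summed to 2565 to 4630 CPM after FGF1 against 975 to 1544 CPM, and their part in the VLMC values of Emp3 and Tm4sf1 was not tested.

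Tm4sf1 showed large differences in tanycytes and astrocytes and a smaller one in ependymal cells, which carried it in vehicle mice as well. Tanycytes stood at 1326, 1165 and 1155 CPM after FGF1 and 36.1, 46.8 and 17.9 CPM in vehicle mice, a log2 difference of 5.04. Astrocytes stood at 223, 208 and 374 CPM against 0, 7.74 and 13.1 (log2 5.21). Ependymal nuclei stood at 1490, 1305 and 2324 CPM against 889, 901 and 744 (log2 1.00). The groups did not overlap in any of these types. Tm4sf1 was also higher in unmapped neurons, at 17.7 ± 4.50 CPM against 1.36 ± 0.300 CPM (log2 3.61), and in VLMC (log2 3.48, 2 FGF1 against 3 vehicle mice, with the marker shift given above). Microglia, oligodendrocytes and oligodendrocyte precursors had more Tm4sf1 after FGF1 in 3 of 3 batches too. The part of free droplet RNA in the values of these types was not tested.

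Akr1b8 in tanycytes stood at 208, 151 and 100 CPM after FGF1 against 0 in every vehicle mouse (at least 13.9-fold). Akr1b8 in astrocytes stood at 57.7, 47.9 and 60.1 CPM against 5.09, 0 and 6.53, a log2 difference of 4.31 (4.97 without vehicle mouse 3). Every FGF1 mouse was above every vehicle mouse in both types.

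Megf11 was the member with the widest vehicle expression, and its fitted log2 difference was above 1 in 3 of 9 types, of which 1, the oligodendrocyte precursors, fell below 1 without FGF1 mouse 3 (0.82). Ependymal nuclei stood at 804, 949 and 615 CPM after FGF1 against 0 in every vehicle mouse (at least 26.5-fold). Tanycytes stood at 291, 268 and 251.2 CPM against 27.1, 9.36 and 35.9 (log2 3.56). Oligodendrocyte precursors, which express Megf11 in vehicle mice, averaged 273 ± 102 against 122 ± 38.1 CPM (log2 1.09). In contrast, n29.Nr5a1/Adcyap1 neurons carried Megf11 at 210 ± 20.0 and 192 ± 30.6 CPM, with overlapping groups and a log2 difference of 0.11.

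**Figure D2:**
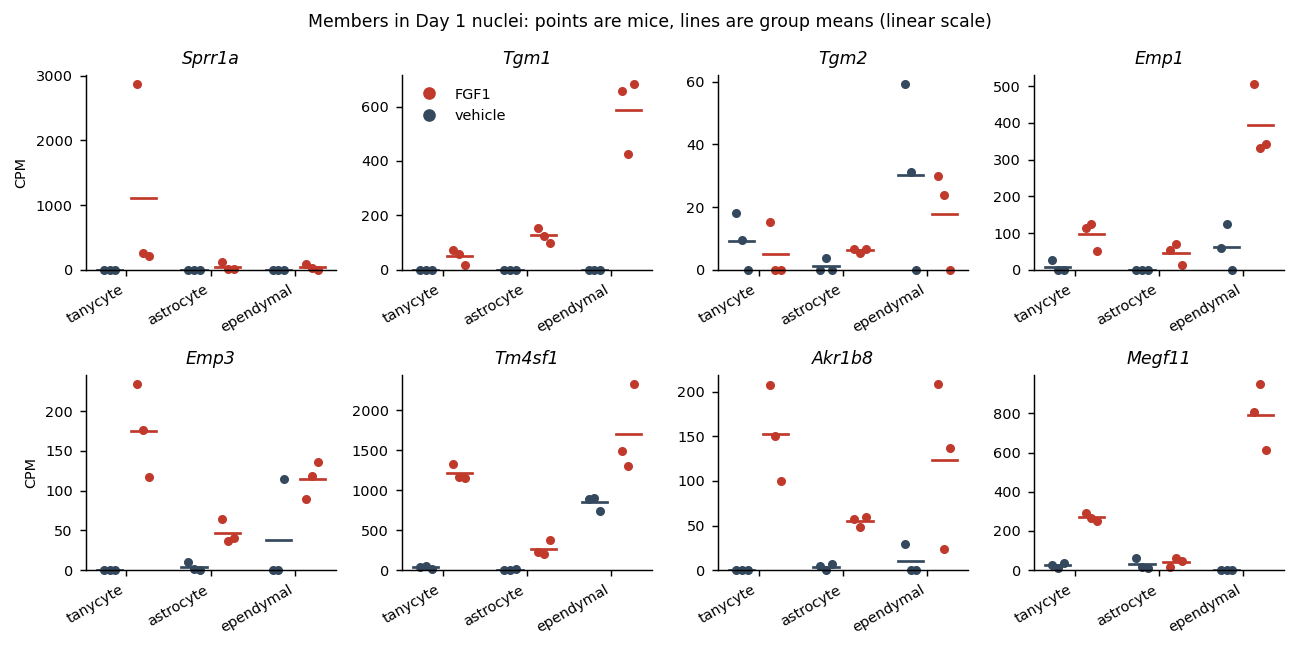
The 8 members in tanycyte, astrocyte and ependymal nuclei on Day 1, in CPM on linear axes that start at 0 and differ between panels. Points are mice (red FGF1, dark vehicle) and lines are group means; Tgm1 and Megf11 are highest in ependymal nuclei (589 and 790 CPM on average after FGF1), and Sprr1a in tanycytes is carried mainly by 1 mouse.

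Cell type markers moved with treatment on Day 1. Marker sums, here and elsewhere, are summed CPM of all UMIs without TMM scaling. In tanycyte nuclei the 8 tanycyte markers summed to 819 to 1046 CPM after FGF1 and 1108 to 1821 CPM in vehicle mice. Their ependymal markers summed to 75.6 to 166 CPM against 403 to 720, their astrocyte markers to 815 to 1323 against 1472 to 2493, and their oligodendrocyte markers to 123 to 213 against 235 to 393. Their VLMC markers overlapped, at 6.65 to 340 CPM (median 7.53) after FGF1 against 0 to 20.2 (median 14.3), the highest value being from a single mouse. Ependymal nuclei had 1240 to 1866 CPM of their own markers after FGF1 against 3280 to 4965, 431 to 980 CPM of astrocyte markers against 1402 to 1651, 53.8 to 122 CPM of oligodendrocyte markers against 231 to 372, and 0 to 30.6 CPM of smooth muscle cell markers against 66.0 to 122. In astrocyte nuclei the endothelial markers summed to 126 to 261 CPM after FGF1 against 58.0 to 123, the tanycyte markers to 170 to 540 against 131 to 256, the oligodendrocyte markers to 123 to 373 against 463 to 1184, and their own markers to 1903 to 3274 against 3002 to 4330. The markers of committed oligodendrocyte precursors there summed to 225 to 255 CPM against 151 to 184, those of oligodendrocyte precursors to 39.3 to 42.6 against 73.0 to 105, and those of pericytes to 23.4 to 36.5 against 59.7 to 73.1. All 8 tanycyte markers were detected in tanycyte nuclei of both groups. The part of these shifts in the members' values was not tested.

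Over all types of Day 5 nuclei, Emp1 had 26 UMIs in FGF1 mice and 0 in vehicle mice, Emp3 had 58 and 18, Akr1b8 had 35 and 17, and Tm4sf1 had 319 and 44, from 7986 and 3773 nuclei. Emp1 was higher in 2 of 2 batches in astrocytes, in Glu5 neurons and in unmapped neurons, below the filter for a test. Sprr1a and Tgm1 were at 0 UMIs in all FGF1 nuclei (allowing a share of up to 0.0376%) and in all vehicle nuclei (up to 0.0795%). These limits pool nuclei of all types and do not hold for a single type. Tanycyte nuclei were few (below), and ependymal nuclei were not among the types fitted. Of 88 pairs (11 types), 10 could be tested with the edgeR quasi-likelihood test, covering Megf11, Tgm2 and Tm4sf1. None passed a false discovery rate (FDR) of 0.05. The unadjusted p was below 0.05 for 2 of them, and DESeq2 gave 0 calls. The background was low here as well, with 0.288% of all genes and types called.

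The Tm4sf1 test in unmapped neurons gave a log2 difference of 2.11 ± 0.746 (SE) and FDR = 0.449, from 2.62 and 3.51 CPM in FGF1 mice and 0.41 and 1.77 CPM in vehicle mice. It was 0.82 without vehicle mouse 28 and 2.86 without vehicle mouse 38. Megf11 in oligodendrocyte precursors stood at 68.1 and 109 CPM in FGF1 mice and 149 and 160 CPM in vehicle mice (log2 -0.82 ± 0.370, FDR = 0.435), opposite in sign to its Day 1 difference in that type. Neither difference passed the test.

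Tanycytes were not tested in Day 5 nuclei, since 1 of the 2 vehicle mice had 9 tanycyte nuclei, under the minimum of 10. The vehicle mice had 23 tanycyte nuclei together and the FGF1 mice 141. Tm4sf1 had 21 UMIs in 15 of the 141 nuclei (10.6%) and 0 in the 23, which allows a share of up to 13.04%. Emp3 had 6 UMIs in 5 nuclei against 1 in 1, and Megf11 had 15 in 15 against 3 in 3.

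The Day 5 whole cells are a second cohort with more mice. Cell classes were rebuilt from marker genes, since the deposited table gives cluster numbers only. Tanycytes were clusters 0, 7 and 10 (9204 cells from FGF1 and 5200 from vehicle mice), astrocytes were clusters 1 and 4, and ependymal cells were cluster 6. FGF1 mice gave 57.4%, 82.2% and 64.6% of the cells in clusters 0, 7 and 10. They gave 16.2% of astrocyte cluster 1 and 83.0% of astrocyte cluster 4, which was led by Gfap, Serpina3n and Aqp4.

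Of 88 pairs of member and class (11 classes), 17 passed the filter on low counts and 5 were called at FDR below 0.05, all of them higher after FGF1. Over all classes together 4.18% of genes were called. Sprr1a, Tgm1 and Akr1b8 passed the filter in no class. The 5 calls were Emp1, Emp3 and Tm4sf1 in tanycytes (5.08% of all genes tested there were called, 2.29% as higher) and Tm4sf1 in astrocytes (12.6%, 6.55% as higher) and in endothelial cells (0.948%, 0.363% as higher). No member was called in ependymal cells, oligodendrocytes or oligodendrocyte precursors, where 1.28%, 2.25% and 3.24% of genes were. By cluster, 3 of 13 tested pairs were called, against 1.75% of genes over all clusters.

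**Figure D3:**
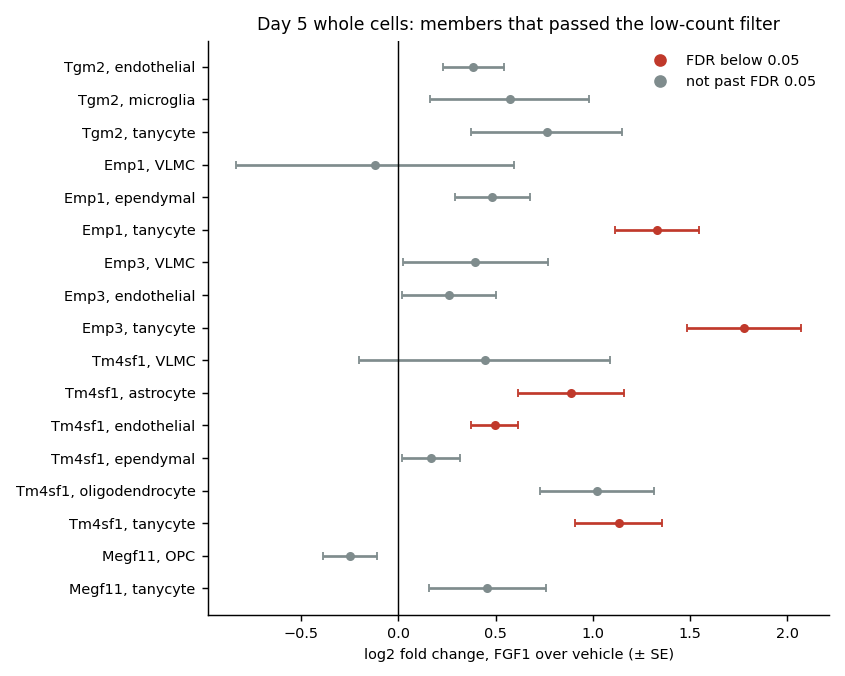
Fitted log2 fold changes (FGF1 over vehicle, ± SE) in Day 5 whole cells for the 17 member and class pairs that passed the low-count filter, with FDR below 0.05 in red. The 5 red points are higher after FGF1, from 0.49 for Tm4sf1 in endothelial cells to 1.78 for Emp3 in tanycytes.

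Emp3 rose in tanycytes with the largest log2 difference of the 17 pairs. It ran from 9.499 to 20.0 CPM in FGF1 mice (median 10.8) and from 0.994 to 6.49 CPM in vehicle mice (median 3.36), so the groups did not overlap. The means were 12.6 ± 4.02 and 3.47 ± 1.87 CPM (SD, n = 6 each), a log2 difference of 1.78 ± 0.295 (SE, edgeR FDR = 0.0009), and FGF1 was higher in 6 of the 6 batches. With 188 UMIs in FGF1 mice and 27 in vehicle mice, Emp3 passed the filter of the class mainly through its FGF1 counts. It passed the filter in no single tanycyte cluster. Without the filter it was called in cluster 0 (log2 1.81, FDR = 0.001) and in cluster 7 (log2 3.04, FDR = 0.0112) but not in cluster 10 (log2 0.64, FDR = 0.802). The share of all genes called without the filter is not given, here or below. A batch in the deposited table holds 1 FGF1 and 1 vehicle mouse, and what it stands for is not stated.

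Emp1 rose in tanycytes as well, from a vehicle range of 4.48 to 10.6 CPM (median 7.01) to 14.996 to 22.1 CPM (median 17.7). The means were 18.4 ± 3.10 and 7.26 ± 2.62 CPM, a log2 difference of 1.33 ± 0.216 (edgeR FDR = 0.0007) with FGF1 higher in 6 of 6 batches. Again no FGF1 mouse overlapped a vehicle mouse, which held for 2.47% of all genes tested in tanycytes. Within the tanycyte clusters, only cluster 0 had enough UMIs for the Emp1 test, at 24.7 ± 6.13 against 10.3 ± 6.39 CPM (log2 1.41 ± 0.264, FDR = 0.0014, where 5.27% of genes were called).

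Tm4sf1 in tanycytes ran from 20.0 to 69.3 CPM after FGF1 (median 41.2) and from 18.9 to 34.4 CPM in vehicle mice (median 21.4). The log2 difference was 1.13 ± 0.223 (edgeR FDR = 0.0064), FGF1 was higher in 5 of 6 batches, and the groups overlapped. In cluster 0 alone the log2 difference was 1.48 ± 0.398 with FDR = 0.0602, and with DESeq2 it was 1.35 with FDR = 0.020. Tm4sf1 passed the filter in neither of the other tanycyte clusters. Without the filter it was called in cluster 7 (log2 1.69, FDR = 0.0433, higher in 5 of 5 batches) but not in cluster 10 (log2 1.44, FDR = 0.513), where FGF1 was higher in 3 of 6 batches and lower in 3. No share of all genes called stands beside the cluster 7 call.

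Leaving out any single mouse kept the 3 tanycyte calls, with log2 differences of 1.63 to 1.91 for Emp3, 1.198 to 1.52 for Emp1 and 0.97 to 1.23 for Tm4sf1. The tanycyte markers summed to 1884 to 2654 CPM after FGF1 and 1999 to 2416 CPM in vehicle mice, the endothelial markers to 71.9 to 201 and 77.9 to 167, and the ependymal markers to 1105 to 1539 and 1153 to 1491. Astrocyte markers in tanycytes were lower after FGF1, at 1218 to 1992 against 2242 to 3629 CPM. Median depth in tanycytes was 1605 UMIs in FGF1 and 1263 UMIs in vehicle mice. The part of the astrocyte marker shift in the calls was not tested.

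The share of tanycytes with a UMI of these members was low in both groups. With each cell thinned to 600 UMIs, it was 1.19 ± 0.217% after FGF1 against 0.357 ± 0.420% for Emp1, 0.689 ± 0.395% against 0.179 ± 0.271% for Emp3, and 2.31 ± 0.803% against 1.42 ± 0.396% for Tm4sf1 (n = 6 each). Exact two-sided permutation tests over mice gave p = 0.0065, 0.026 and 0.039, and adjusted over 71 tests of all members and classes 0.115, 0.205 and 0.277. Of the 71 tests 12 had an unadjusted p below 0.05, all with higher shares after FGF1, and 0 passed the adjustment. The smallest p that 6 against 6 mice allow is 0.0022. The permutations ran over all splits of the mice and did not keep them within their batches of 1 FGF1 and 1 vehicle mouse.

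**Figure D4:**
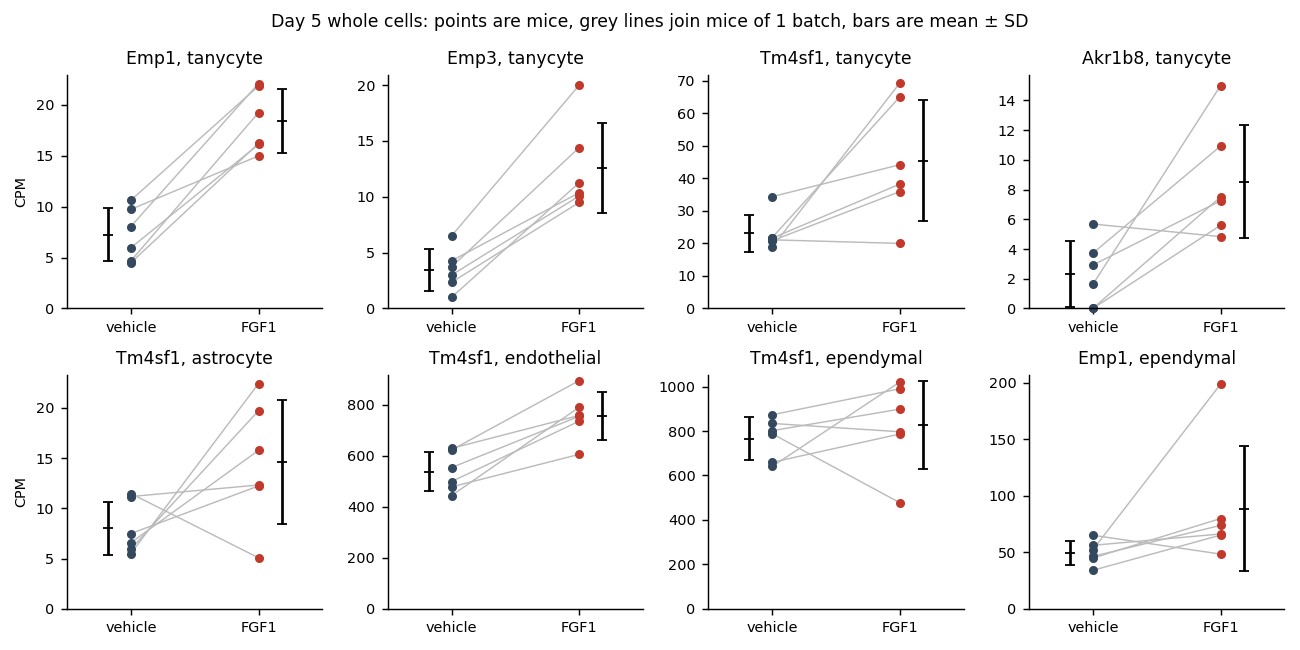
CPM per mouse in Day 5 whole cells for 8 pairs of member and class, with grey lines joining the 2 mice of a batch and bars giving the mean ± SD of 6 mice. Axes are linear, start at 0 and differ between panels; Emp1 and Emp3 in tanycytes do not overlap between groups, while Tm4sf1 and Emp1 in ependymal cells do.

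Outside tanycytes, Tm4sf1 was the only member to pass both the filter and the test. In endothelial cells, where it is a known marker, it ran from 606 to 895 CPM after FGF1 (median 757) and from 444 to 629 CPM in vehicle mice (median 526). The log2 difference was 0.49 ± 0.120 (edgeR FDR = 0.032) and FGF1 was higher in 6 of 6 batches. Without 1 mouse the call was lost in 9 of 12 cases (FDR up to 0.175), and it was kept without FGF1 mouse 28 and without vehicle mice 22 and 35. The thinned share of endothelial cells with a Tm4sf1 UMI was 29.3 ± 1.81% against 22.8 ± 2.37%, with no overlap (exact permutation p = 0.0022, adjusted 0.0768).

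In astrocytes Tm4sf1 ran from 5.07 to 22.4 CPM (median 14.0) after FGF1 and from 5.50 to 11.5 CPM (median 7.03) in vehicle mice, a log2 difference of 0.89 ± 0.272 (edgeR FDR = 0.0291). FGF1 was higher in 5 of 6 batches. The call was lost in 7 of 12 cases when 1 mouse was left out (FDR up to 0.0763), namely FGF1 mice 6, 7 and 10 and vehicle mice 22, 25, 29 and 35. FGF1 and vehicle astrocytes came largely from different clusters (above). Within cluster 1 Tm4sf1 was higher after FGF1 in 2 of 6 batches (log2 -0.20, FDR = 0.925, without the filter), and within cluster 4 in 4 of 6 (log2 1.37, FDR = 0.361), so neither cluster alone gave the call. In the class, the tanycyte markers in astrocytes summed to 141 to 322 CPM after FGF1 against 96.3 to 138, and the ependymal markers to 361 to 480 CPM (median 394) against 268 to 422 (median 307). Neuron markers there were lower after FGF1, with the values given below. The part of these marker shifts in the result was not tested.

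Oligodendrocytes came from clusters 2, 11 and 12, of whose cells 24.3%, 88.0% and 19.0% were from FGF1 mice, so the groups drew on them in different proportions, with cluster 2 holding most of the cells of each group. They gave 15.2 ± 4.27 CPM of Tm4sf1 after FGF1 against 6.66 ± 3.84 CPM, with FGF1 higher in 6 of 6 batches and FDR = 0.0589 (log2 1.02 ± 0.293). In cluster 2 alone the difference was called, at 28.7 ± 13.1 against 8.08 ± 4.72 CPM (log2 1.41 ± 0.352, FDR = 0.0486, where 0.904% of genes were called), and the groups did not overlap, as for 1.15% of genes there. With the batch as a block, the oligodendrocyte class was also called (log2 1.19, FDR = 0.018), which is 1 of the 2 calls gained with that block. Emp3 in oligodendrocytes stood below the filter, at 6.39 ± 1.30 against 1.13 ± 1.08 CPM from 33 and 15 UMIs, with FGF1 higher in 6 of 6 batches. It was called without the filter (log2 1.97, FDR = 0.0202), with no share of all genes called beside it. Its thinned share of cells with a UMI was 0.356 ± 0.171% against 0.0800 ± 0.0686% (exact permutation p = 0.0022, adjusted 0.0768).

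Ependymal cells, which had the highest vehicle level of Tm4sf1, gave 828 ± 197 CPM after FGF1 and 766 ± 94.9 CPM in vehicle mice (log2 0.17 ± 0.149, FDR = 0.700). Emp1 there was at 88.7 ± 55.0 against 49.8 ± 10.6 CPM (log2 0.48 ± 0.194, FDR = 0.249), with FGF1 mouse 6 highest at 199 CPM from only 19 ependymal cells. In VLMC (5 FGF1 and 4 vehicle mice), the log2 differences were -0.12 ± 0.715 for Emp1, 0.40 ± 0.374 for Emp3 and 0.44 ± 0.645 for Tm4sf1, none of them past the test.

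The FGF1 effect was compared directly between the 3 ventricular glial classes in fits that held 2 classes at a time. The Tm4sf1 effect was larger in tanycytes than in ependymal cells by 0.90 ± 0.161 on the log2 scale (edgeR FDR = 0.000223), in a comparison where 0.408% of genes were called. It stayed between 0.82 and 0.99 without any 1 mouse. For Emp1 the fitted effect in astrocytes minus that in ependymal cells was 1.46 ± 0.446 (FDR = 0.0242, 7.52% of genes called), but no difference between the classes is read from it. Emp1 in astrocytes alone was below the filter (45 and 14 UMIs) and entered this fit through its ependymal counts. FGF1 and vehicle astrocytes lay largely in different clusters, in neither of which Emp1 was called, and the call was lost in 5 of 12 cases without 1 mouse (FGF1 mice 7, 21 and 36, vehicle mice 25 and 27, FDR up to 0.105).

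The remaining class differences did not pass the test. Between tanycytes and astrocytes, where 15.4% of genes were called, the log2 difference of effects was 0.31 ± 0.292 for Tm4sf1 (FDR = 0.532), -0.84 ± 0.4935 for Emp1 (FDR = 0.271) and -0.09 ± 0.453 for Emp3. Between tanycytes and ependymal cells it was 0.80 ± 0.278 for Emp1 (FDR = 0.289) and 1.37 ± 0.464 for Tgm2 (FDR = 0.279). Between astrocytes and ependymal cells it was 0.69 ± 0.271 for Tm4sf1 (FDR = 0.100).

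Sprr1a was found in whole cells of the separate Day 5 cohort, unevenly over mice and cells. It had 338 UMIs in 89 of 25767 FGF1 cells, from 4 of 6 mice, and 45 UMIs in 6 of 29123 vehicle cells, all from vehicle mouse 35. The labels give PBS and pair-feeding for this mouse, and the deposited cell annotation names it 35_PF, so it was taken as vehicle. Its title reads FP where the other vehicle titles read PF. Without this mouse vehicle Sprr1a was 0. Tanycytes stood at 0 CPM in FGF1 mice 10 and 28, 8.0 in mouse 36, 20.5 in mouse 7, 46.3 in mouse 21 and 249.9 in mouse 6. Vehicle mouse 35 stood at 22.9 CPM and the other 5 vehicle mice at 0. The groups overlapped, and the thinned share of tanycytes with a UMI, 1.15 ± 1.86% against 0.0616 ± 0.151%, gave an exact permutation p of 0.106.

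Most of this Sprr1a was in cluster 10, a tanycyte cluster led by Fndc3c1, Col25a1 and Scn7a. The Sprr1a value of a mouse's tanycytes therefore also depends on how many of them were in cluster 10, and that part was not tested. FGF1 mouse 6 had 100 UMIs in 24 of 116 cluster 10 cells, mouse 7 had 82 in 26 of 529, mouse 21 had 34 in 8 of 52 and mouse 36 had 31 in 8 of 164. Vehicle mouse 35 had 43 UMIs in 4 of 135 cells, 27 of them in 1 cell. One cell held 19 of the 34 UMIs in mouse 21 and 17 of the 31 in mouse 36, against 20 of 100 in mouse 6 and 12 of 82 in mouse 7. The 35 Sprr1a UMIs in endothelial cells came from 3 cells of FGF1 mouse 7, 25 of them from 1 cell.

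Tgm1 had 21 UMIs in 20 FGF1 whole cells, from FGF1 mice 6 and 10, and 0 in 29123 vehicle cells. Tanycytes held 8 of them, all in mouse 10, and ependymal cells also held 8, of which 7 were in 6 of 356 cells of mouse 10. Both Sprr1a and Tgm1 were thus at 0 in Day 5 nuclei, with few tanycyte and no fitted ependymal nuclei, and at low counts in Day 5 whole cells. The whole cells come from other mice of another supplier, with another dissection and preparation. Nuclei and whole cells were not compared by a test.

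Akr1b8 was at low counts in every class. In tanycytes it ran from 4.84 to 15 CPM after FGF1 (median 7.38) and from 0 to 5.68 CPM in vehicle mice (median 2.27), higher in 5 of 6 batches, with 130 and 25 UMIs. In astrocytes it ran from 1.41 to 18.5 CPM and from 0 to 6.03 CPM, higher in 6 of 6 batches. It passed the test in tanycytes only when the filter on low counts was removed (log2 1.42, FDR = 0.0418), with no share of all genes called beside it. The thinned share of tanycytes with an Akr1b8 UMI was 0.489 ± 0.153% against 0.178 ± 0.159% (exact permutation p = 0.0065, adjusted 0.115).

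Emp1 and Emp3 in astrocytes also stood below the filter. Emp1 was at 7.77 ± 4.78 against 1.34 ± 0.885 CPM, higher in 6 of 6 batches, and Emp3 at 7.52 ± 4.03 against 2.15 ± 1.19 CPM, higher in 5 of 6 batches. Without the filter both were called (log2 2.25 with FDR = 0.0013 and log2 1.78 with FDR = 0.0023). No share of all genes called stands beside the calls without the filter in this paragraph. The groups drew on different astrocyte clusters here too. Emp1 was higher in 3 of 6 batches in cluster 1 and 5 of 6 in cluster 4, and was called in neither, while Emp3 was higher in 5 of 6 in each and was called in cluster 1 (log2 2.21, FDR = 0.0061, without the filter).

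Tgm2 and Megf11 passed no test in Day 5 whole cells. Tgm2 in endothelial cells was at 222 ± 41.7 against 166 ± 40.7 CPM, higher in 6 of 6 batches (log2 0.39 ± 0.157, FDR = 0.292). Tgm2 in tanycytes was at 7.93 ± 3.18 against 3.61 ± 2.95 CPM (log2 0.76 ± 0.387, FDR = 0.263). Megf11 in oligodendrocyte precursors was at 157 ± 21.8 against 187 ± 30.5 CPM (log2 -0.25 ± 0.141, FDR = 0.364), and in tanycytes at 7.02 ± 2.75 against 6.38 ± 2.75 CPM (log2 0.46 ± 0.301, FDR = 0.418). Ependymal Megf11, at 0 in every vehicle mouse on Day 1, had too few UMIs for a test in these cells.

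The members occupied different classes in vehicle whole cells. CPM are raised where few genes were fitted, as in pericytes (313 genes), macrophages (782) and VLMC (877). The ranks and overlaps between classes given here and in the next paragraph hold on that uneven scale only. Tm4sf1 was highest in ependymal cells (766 ± 94.9 CPM), above and without overlap with endothelial cells (538 ± 77.1). Endothelial cells overlapped pericytes (484 ± 155) and VLMC (370 ± 262, n = 4), and tanycytes stood at 23.1 ± 5.62 CPM, between macrophages and microglia and overlapping both. Emp1 was highest in VLMC (327 ± 283, n = 4), then ependymal cells (49.8 ± 10.6), then macrophages (12.4 ± 14.4, n = 4), with no overlap between these neighbours. Tanycyte Emp1 at 7.26 ± 2.62 CPM overlapped both endothelial cells above and oligodendrocytes below it.

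Emp3 was highest in VLMC (322 ± 162 CPM, n = 4), macrophages (199 ± 130, n = 4) and pericytes (151 ± 101), with each class in its order overlapping the next. Tgm2 was highest in endothelial cells (166 ± 40.7), overlapping VLMC (73.5 ± 67.6, n = 4) and in turn microglia (56.8 ± 53.5). Megf11 was highest in oligodendrocyte precursors (187 ± 30.5), without overlap with committed precursors (COP, 30.6 ± 33.5). Akr1b8 stood at 5.99 CPM or less in every class, with all neighbours overlapping. Sprr1a was highest in tanycytes (3.81 ± 9.33, from 1 mouse), and Tgm1 was at 0 in all 11 classes.

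**Figure D5:**
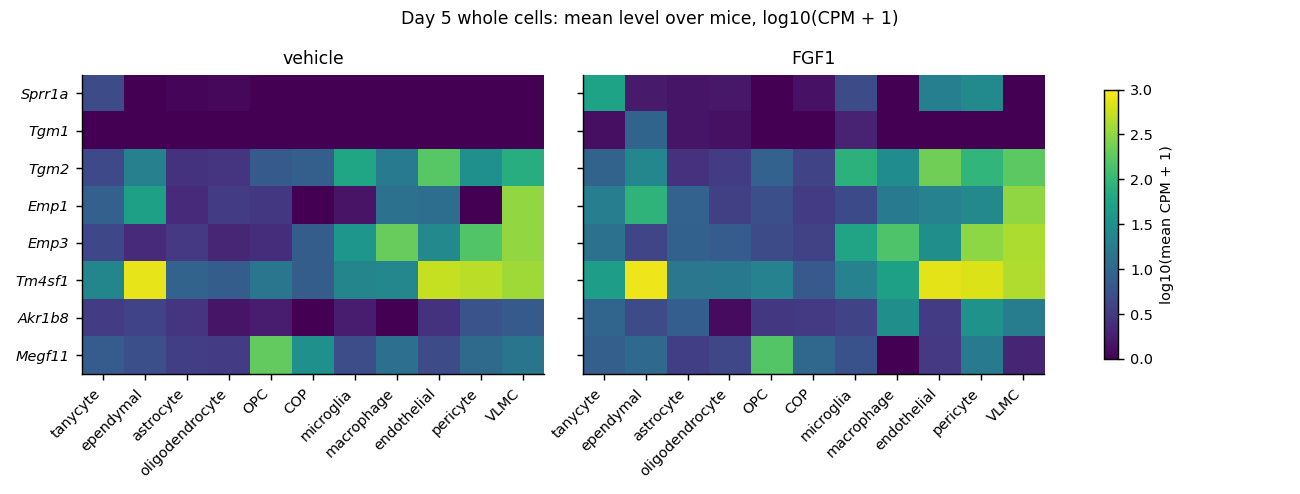
Mean level over mice of the 8 members in 11 classes of Day 5 whole cells, as log10(mean CPM + 1) on 1 colour scale for vehicle (left) and FGF1 (right). CPM are raised in classes where few genes were fitted, such as pericytes, so classes are not directly comparable. Megf11 stands out in oligodendrocyte precursors (187 CPM in vehicle mice), Tm4sf1 in ependymal and endothelial cells, and Sprr1a in tanycytes.

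Genes with the most similar pattern to each member were sought over 129 pseudobulks of mouse and class (12 classes), among 12859 genes, as Pearson's r of log2(CPM + 1). The CPM used here were of all UMIs, without TMM scaling. These points share mice and libraries, and the values are a description. Tm4sf1 was most like Ptrf (r = 0.833), Uaca (0.818) and Pltp (0.809), and Emp3 was most like Lgals1 (0.783) and Nupr1 (0.727). Emp1 was closest to Lbp (0.730), Tgm2 to Klf2 (0.723) and Megf11 to Plpp4 (0.737). Sprr1a was closest to Fndc3c1 (0.532) and Six6 (0.469), both of which are leading genes of cluster 10, and Akr1b8 to Eef1d (0.422).

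Relatives of the members and genes associated with axon regeneration, 39 genes in all, gave 61 tests in tanycytes, ependymal cells and astrocytes of Day 5, with 6 calls outside the members. Tanycytes had 2 of them, astrocytes 4 and ependymal cells 0, where 5.08%, 12.6% and 1.28% of all genes were called. Akr1e1, another aldo-keto reductase, rose in tanycytes (28.6 ± 4.92 against 19.0 ± 4.43 CPM, log2 0.59, FDR = 0.0411). In astrocytes Megf9 rose (131 ± 29.96 against 87.4 ± 15.8 CPM, log2 0.58, FDR = 0.0068), as did Stat3, a transcription factor activated by cytokines (113 ± 28.7 against 82.3 ± 19.5 CPM, log2 0.47, FDR = 0.0491). Neither was called within an astrocyte cluster, with log2 differences of -0.14 in cluster 1 and 0.30 in cluster 4 for Megf9 and 0.0046 and -0.22 for Stat3. Akr1e1 was tested in tanycyte cluster 0 alone, at 0.21 (FDR = 0.606).

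The 3 other calls were lower after FGF1, and all are on the regeneration list, as is Stat3. Gap43, a growth cone protein gene, fell in astrocytes (88.9 ± 24.5 against 161 ± 35.4 CPM, log2 -0.87, FDR = 0.0027) and in tanycytes (51.9 ± 15.2 against 90.6 ± 21.1 CPM, log2 -0.84, FDR = 0.0087), and Sox11, a transcription factor of immature neurons, fell in astrocytes (log2 -0.68, FDR = 0.0077). Within clusters, Gap43 was called in tanycyte cluster 0 (log2 -0.80, FDR = 0.0016), and neither gene was called in astrocyte cluster 1 or 4. Neuron markers moved with them, at 118 to 244 CPM (median 168) after FGF1 against 231 to 531 CPM (median 337) in astrocytes and 116 to 231 against 166 to 387 CPM in tanycytes, and their part was not tested. The regeneration list, which does not include Sprr1a, had 12 of 12 genes tested in tanycytes with a median log2 difference of 0.27, against -0.01 over all genes, and 9 of 12 tested in astrocytes with a median of -0.55, against -0.02 over all genes.

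Of the 15 cornified envelope genes listed, Sprr1a and Tgm1 among them, 9 were in the whole-cell table and 0 passed the filter in these 3 classes. Of 10 Sprr genes only Sprr1a was in the table, and of 9 transglutaminase genes 3 were, with Tgm2 alone tested. The PMP22 family had 5 of 5 genes tested in tanycytes, with Emp1 and Emp3 higher and 0 lower (median log2 0.08). The aldo-keto reductases had 8 of 11 genes in the table and 5 tested in tanycytes, with Akr1e1 higher (median log2 0.39), and the Megf genes had 4 of 8 tested there, with 0 called (median log2 -0.24). Of 5 L6 family genes, Tm4sf1 alone was tested.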

How the data were processed

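The authors counted UMIs with Cell Ranger 1.2 against GRCm38 (mm10), with introns included for nuclei. They used Seurat, removed Scrublet doublets from whole cells but ran no doublet caller on nuclei, and removed neurons from the whole cells. The deposited values used here are raw counts per gene and barcode without pooling, and the deposited percent of mitochondrial and ribosomal UMIs per cell. Nuclear types are those of the deposited annotation. Whole-cell classes were rebuilt from marker genes per cluster. Tables of transformed values were not used.

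Counts were summed per mouse and type or class, with at least 10 barcodes per mouse, and tested with edgeR 4.0.16 in R 4.3.3 (filterByExpr, TMM, robust quasi-likelihood test, Benjamini-Hochberg adjustment over all genes of a type). SE is the log2 difference divided by the square root of F. Each library is 1 mouse. Shares of positive cells were compared by exact permutation over mice. Scripts were tested on simulated data. Alternatives were DESeq2 1.42.0, other size factors, no filter, blocks, a 20% limit on mitochondrial or ribosomal UMIs, and leaving out each mouse.

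The 8 members are described in each comparison, and relatives only where called in tanycytes, ependymal cells or astrocytes. For each member at 10 CPM or more in a class, the most similar genes are named, with 1 result not reported here. Members and lists were chosen with earlier results of these data known.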

Additional observations from a re-analysis of the deposited data

Results flagged for a closer look

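In Day 5 whole cells, 7 values from 5 mice stood apart in 39 groups of 4 to 6 mice checked by Dixon's test. Its rate of about 1 in 20 groups holds for normally distributed values only. In a group that is otherwise 0 it marks any lone positive mouse, so no excess is read from the count. The groups included Sprr1a and Akr1b8 in tanycytes and Tgm1 in ependymal cells, which were below the filter. FGF1 mouse 6 was high in 3 of the 7 values. Its tanycytes had 249.9 CPM of Sprr1a (next mouse 46.3), and its ependymal cells, 19 in number, had 199 CPM of Emp1 (next 79.9) and 39.8 CPM of Tgm1 (next 9.86), the last from 1 UMI. Most Sprr1a was in cluster 10, and the part of that cluster among the tanycytes of this mouse was not tested. Vehicle mouse 35 had 22.9 CPM of Sprr1a in tanycytes with the other vehicle mice at 0. Its title reads FP where the others read PF, while its treatment is given as PBS and the deposited cell annotation names it 35_PF.

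Vehicle mouse 22 had 162 CPM of Tgm2 in microglia (next 57.0), FGF1 mouse 7 had 23.2 CPM of Tm4sf1 in oligodendrocytes (next 15.7), and vehicle mouse 27 had 34.4 CPM of Tm4sf1 in tanycytes (next 21.8).

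The FGF1 effect differed between classes, by the test of the difference, for Tm4sf1 (tanycytes over ependymal cells by 0.90 on the log2 scale). The same test gave 1.46 for Emp1 (astrocytes minus ependymal cells), but Emp1 in astrocytes was below the filter of its class, the astrocytes of the groups lay largely in different clusters, and the call was lost in 5 of 12 fits without 1 mouse (FDR up to 0.105), so no difference is read from it.

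Day 1 nuclei that the deposited annotation gave no cell type held 34 Sprr1a UMIs and 6 Tgm1 UMIs in FGF1 mice and 0 of either in vehicle mice.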

How the results depend on the processing

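The Day 1 count of 17 pairs with a log2 difference above 1 was 16 with the replicate block and 16 with the batch as a block (the Day 1 and Day 5 nuclei and cluster versions of the latter were chosen after seeing the data), 17 with DESeq2 and with RLE size factors, and 15 to 24 without any 1 mouse. Within cell types, deviations of log2 CPM from the group mean were correlated between FGF1 and vehicle mice. Same-numbered mice gave -0.70 to 0.74, mice of the same batch -0.82 to 0.29 and other pairs 0.013 to 0.82. With 3 mice per group the deviations sum to 0 and the correlations offset one another, so they cannot decide a pairing. The numbers were not taken to pair the mice. Without the low-count filter the count was 92, the calls by class 9 and the calls by cluster 8, with more genes then tested. The share of all genes called without the filter is not given, so these counts have no background beside them. The same holds for each single call given above as made without the filter. Leaving out 1 mouse gave 3 to 5 calls by class (3 without FGF1 mice 6, 7 or 10 or vehicle mouse 25), and 1 to 3 class differences.

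Of 747 values of tested pairs under an alternative, 683 kept direction and call, 21 lost the call, 6 gained it and 37 changed sign, none of them called. The cause was not tested. With DESeq2, Day 5 nuclear Megf11 in oligodendrocytes was -0.10 and Tgm2 in unmapped neurons -0.26. With the batch as a block these were -0.23 and -0.21, and Tgm2 was -0.0894 in a fit over all 4 groups. VLMC Emp1 (cluster 13) was 0.059 with the batch block and 0.038 without the filter.

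Without 1 mouse, Day 5 nuclear Megf11 ran from -0.059 to 0.37 in astrocytes, -0.71 to 0.0077 in microglia, -0.52 to 0.53 in n16.Rgs16/Vip, -0.15 to 0.062 in n29.Nr5a1/Adcyap1, -0.74 to 0.94 in oligodendrocytes and -0.34 to 0.11 in unmapped neurons, and Tgm2 in unmapped neurons from -1.05 to 0.86. VLMC Emp1 ran from -0.39 to 1.07 and Tm4sf1 from -0.15 to 0.79. Class differences ran from -0.99 to 0.61 for Akr1b8 and -0.36 to 0.17 for Emp3 (tanycytes minus astrocytes), and -0.32 to 0.52 for Tgm2 (astrocytes minus ependymal cells). Few UMIs limit Sprr1a, Tgm1 and Akr1b8 on Day 5, and few tanycyte nuclei limit the Day 5 nuclei.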
